A study of Mus musculus with 19 samples.

Results

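Chemokine receptors of circulating leukocytes were followed in DBA/2 and B6 mice after administration of CAWS, the water-soluble fraction that *Candida albicans* sheds into its culture medium and that provokes vasculitis in mice. The members were the genes Ccr1, Ccr2, Ccr6, Ccr7, Cxcr2, Cxcr3, Cxcr4, Cxcr5 and Cx3cr1, chosen by name, and every non-control probe that carries one of these names or an older synonym (Il8rb for Cxcr2, Blr1 for Cxcr5) was taken, which gave 12 probes for 9 genes among 41174 non-control probes. All mice were male and all had received CAWS, and the week 0 samples were taken right after the last injection, so that no group is untreated. The study's methods give an age range for the mice but no age for a group, and only mice that survived to a time point could be sampled. There were 2 samples each of DBA/2 mice at weeks 0, 2, 4, 8 and 9 and of B6 mice at weeks 0, 4 and 8, and 1 sample each of B6 mice at weeks 2 and 9. The arrays were single-color Agilent whole mouse genome arrays, 19 for the 18 RNA samples, because B6 week 0 replicate 2 was hybridized to 2 arrays.

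Chemokine receptors are membrane proteins with a G protein on their inner face that let a leukocyte sense a gradient of chemokine, a small secreted protein, and crawl toward its source. Each class of leukocyte carries its own set. Cxcr2 brings neutrophils out of the bone marrow and into inflamed tissue, Ccr2 does so for inflammatory monocytes and Cx3cr1 marks patrolling monocytes and NK cells, whereas Ccr7, Cxcr5 and Ccr6 guide lymphocytes and dendritic cells into lymphoid tissue, Cxcr3 marks activated T cells and NK cells, and Cxcr4 retains cells in the bone marrow. In whole-blood RNA, fewer cells of a type and less RNA per cell cannot be told apart.

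The reference table of promoters held 8 windows for 7 of the members, namely Ccr1, Ccr2, Ccr6, Cx3cr1, Cxcr2, Cxcr3 and Cxcr4. The 250 bases before the start of 4 genes are shown, because Cxcr2 and Ccr2 had the largest rises in both strains and Cxcr3 and Ccr6 changed differently in DBA/2 and B6 mice. They are RefSeq sequences of GRCm38.p6 and are read 5′ to 3′ along the strand of the gene, and capitals mark matches on either strand to an Ets core (AGGAAGT), a Stat palindrome (TTCNNNGAA), a GC box (GGGCGG) or a TATA box (TATAAA).
Cxcr2, chr1:74153744-74153993, + strand: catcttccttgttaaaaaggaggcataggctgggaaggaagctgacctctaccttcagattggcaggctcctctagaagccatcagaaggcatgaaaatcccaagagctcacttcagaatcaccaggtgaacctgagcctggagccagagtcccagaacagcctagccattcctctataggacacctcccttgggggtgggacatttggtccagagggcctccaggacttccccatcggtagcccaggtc
Ccr2, chr9:124101933-124102182, + strand: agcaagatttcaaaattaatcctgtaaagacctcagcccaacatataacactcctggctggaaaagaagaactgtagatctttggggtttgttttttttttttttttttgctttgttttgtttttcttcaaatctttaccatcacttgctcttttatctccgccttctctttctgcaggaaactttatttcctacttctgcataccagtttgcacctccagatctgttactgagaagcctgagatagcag
Cxcr3, chrX:101734148-101734397, - strand: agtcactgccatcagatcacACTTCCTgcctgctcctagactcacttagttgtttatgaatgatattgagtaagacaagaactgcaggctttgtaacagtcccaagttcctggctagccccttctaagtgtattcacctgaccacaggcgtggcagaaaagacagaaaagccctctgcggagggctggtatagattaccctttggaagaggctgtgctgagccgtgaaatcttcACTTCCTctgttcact
Ccr6, chr17:8235793-8236042, + strand: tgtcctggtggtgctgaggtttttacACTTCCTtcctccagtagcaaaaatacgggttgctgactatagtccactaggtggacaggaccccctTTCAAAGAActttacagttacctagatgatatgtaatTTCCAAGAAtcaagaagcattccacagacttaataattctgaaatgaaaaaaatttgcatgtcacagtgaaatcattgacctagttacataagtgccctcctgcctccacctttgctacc
The Ets core, which factors of the Ets family bind, was found in the windows of Cxcr3 and Ccr6, that is in 2 of the 8 windows, against 7.69% of all 32851 promoter windows of that length. The Stat palindrome was found in 1 of 8 windows, that of Ccr6, against 7.02%. The GC box and the TATA box were each found in 1 of 8 windows, that of Cxcr4, against 32.7% and 12.4%. The windows of Cxcr2 and Ccr2 held none of these letters. Ccr6 had 2 windows, and the other one, chr17:8242276-8242525, which is not shown, held none of them either. The Ccr6 window shown held 1 match of the Ets core and 2 of the Stat palindrome, the Cxcr3 window 2 of the Ets core, and none of them overlap. A match is a description of the letters and says nothing of whether a factor binds there.

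The value given for each probe is a normalized log2 signal, the log2 of the processed signal minus the 75th percentile of its array, so that 0 is the level of the 75th percentile of the probes detected on all arrays. Levels of different probes cannot be compared with each other. A probe was called well above background by the scanner software, and of the main probes (the brightest probe of each gene) those of Ccr2, Ccr6, Ccr7, Cxcr2, Cxcr3, Cxcr4, Cxcr5 and Cx3cr1 were so in all 18 samples and that of Ccr1 in 7. Of the 12 member probes, 11 passed the filter on dim probes, well above background in at least 2 samples, and the second Cx3cr1 probe was not well above background in any. Changes were tested with limma over all 22939 probes that passed, p values are adjusted over all of these by the Benjamini-Hochberg method, and a probe is said to have risen or fallen where the adjusted p was under 0.05.

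The replicates of a group were nearly as alike as repeat measurements of 1 RNA. Over the 11536 probes detected on all arrays, the spread of the log2 difference (a robust SD) was 0.139 between the 2 arrays of the B6 week 0 replicate 2 RNA, and it was from 0.131 to 0.187 between the replicates of a group. Between different weeks of 1 strain it was from 0.273 to 0.57, and between strains from 0.344 to 0.692. The labels call the replicates biological, and that of DBA/2 week 2 replicate 2 also carries a technical replicate number that its title lacks. The p values may measure only the spread between hybridizations of alike RNA, so that the sizes of the changes are given first and the number of mice behind a sample is not known here. Where each group is taken as 1 sample there is no test, and a change of at least 2-fold is then the criterion.

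**Figure D1:**
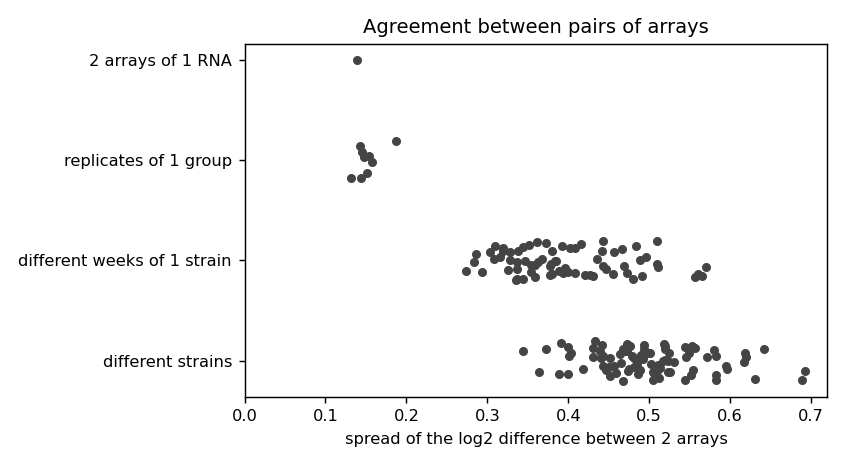
Spread of the log2 difference (a robust SD over 11536 probes, horizontal axis, in log2 units) for each pair of arrays, with each point a pair and each row a kind of pair. The 9 pairs of replicates of 1 group lie from 0.131 to 0.187, beside the pair of arrays of 1 RNA at 0.139 and below all pairs of different weeks.

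The labelled leukocytes were checked against a pan-leukocyte list, of which all 15 genes were detected in all 18 samples, with sums from 68.1 to 102 over the samples. Over the mean of weeks 4 and 8, 8 rose and 1 fell in DBA/2 mice, where 9.8% of all tested probes rose and 13.1% fell. In B6 mice 4 rose and none fell, beside 7.28% and 7.74%. The list was thus not level itself. Hepatocyte genes were also present, and they set groups apart. The summed signal of 19 hepatocyte genes with a probe was from 60.4 to 61.7 in the B6 week 0 samples and from 42.2 to 42.9 in the B6 week 8 samples, but from 1.43 to 2.4 in B6 mice at weeks 2, 4 and 9 and from 1.29 to 2.76 in DBA/2 mice. Each change in B6 mice at week 2, week 4 or week 9, the mean of weeks 4 and 8 in B6 mice and every comparison of the strains that uses B6 week 0 therefore sets samples against each other that differ in this list, whereas B6 weeks 0 and 8 were both high in it. Erythroid and platelet genes set groups apart too. The summed signal of 9 erythroid genes was from 3710 to 3950 in B6 mice at week 0 and from 1700 to 1720 at week 8. It was from 1960 to 2110 in DBA/2 mice at week 0. The platelet sum was 158 in the B6 week 2 sample, beside 421 to 431 at B6 week 0. The part of these RNAs in the receptor values was not tested. All replicate 1 arrays were scanned on 1 day and all replicate 2 arrays on another, so that each group of 2 samples holds both days. By the arrays' slides, DBA/2 mice at weeks 0, 2, 4 and 8 shared a slide within each replicate set, whereas at week 9 they lay on other slides and the 2 strains at week 0 shared none, so that slide and the DBA/2 week 9 change, and slide and the strain difference at week 0, cannot be told apart.

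Over the mean of weeks 4 and 8, the weeks that have 2 samples in both strains, 4 receptors rose and 3 fell in DBA/2 mice. Cxcr2, Ccr2, Cxcr3 and Cxcr4 were higher than at week 0 and Ccr6, Ccr7 and Cxcr5 were lower, while Ccr1 and Cx3cr1 did not pass. In B6 mice 2 receptors, Cxcr2 and Ccr2, rose and 3, Ccr7, Cxcr3 and Cxcr4, fell. That is 7 of 9 main probes in DBA/2 mice, where 22.9% of all tested probes were called (9.8% rose and 13.1% fell), and 5 of 9 in B6 mice, where 15% were (7.28% rose and 7.74% fell). The median log2 change of the 9 main probes was 0.37 in DBA/2 mice and -0.22 in B6 mice, beside -0.14 and -0.08 over all tested probes. With normexp background correction, an alternative that starts from the raw pixel signals, 4 rather than 9 of the 11 tested receptor probes were called in DBA/2 mice and 2 rather than 6 in B6 mice, and the main probes among them were those of Cxcr2, Ccr2 and Cxcr3 in DBA/2 mice and of Cxcr2 in B6 mice. Normexp also lowered the share of all tested probes called for the strain difference, as given below. How far the drop in calls is particular to the receptors was not tested. At least 2-fold changes were found for 2 of the 9 genes in DBA/2 mice, Cxcr2 and Ccr2, and for 1 in B6 mice, Cxcr2, where 8.03% and 6.4% of all tested probes changed as much.

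**Figure D2:**
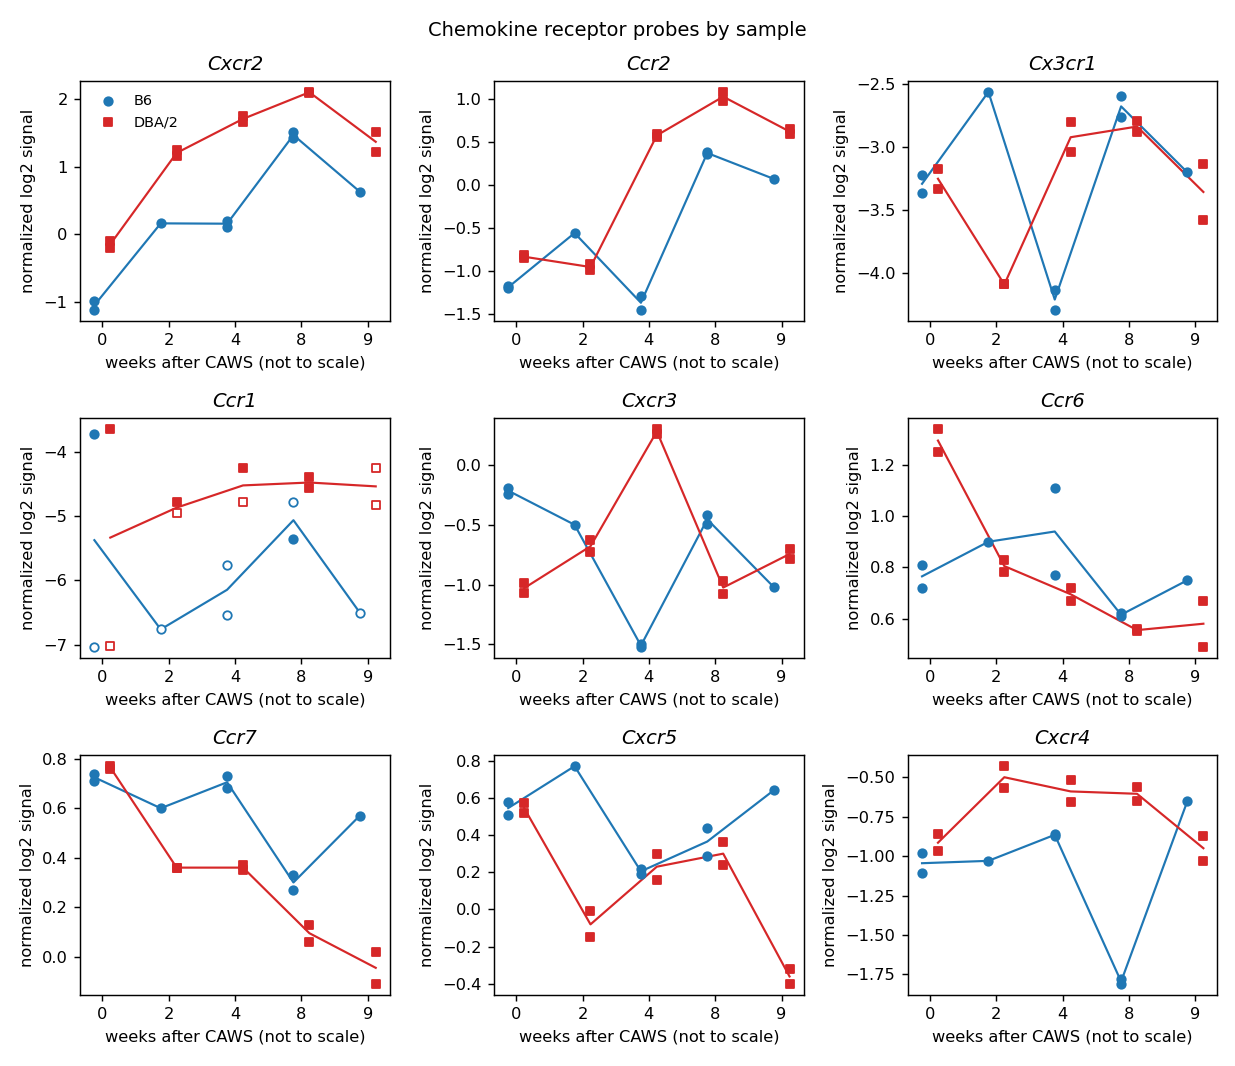
Normalized log2 signal (vertical axis) of the main probe of each receptor at 0, 2, 4, 8 and 9 weeks after CAWS (horizontal axis, not to scale) in B6 mice (circles) and DBA/2 mice (squares), with each point a sample, open where the probe was not well above background, and lines through the group means. Replicates of most probes lie close together while the weeks and strains part, with Cxcr2 higher at every later week in both strains and Cxcr3 at week 4 at its highest in DBA/2 and its lowest in B6 mice.

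Cxcr2, the receptor for the Cxcl1 family of neutrophil attractants, had the largest change of the 9 receptors. Its main probe (NM_009909, chromosome 1 of mm8, 74093519 to 74093578) was at -0.10 and -0.20 in the DBA/2 week 0 samples, 1.25 and 1.16 at week 2, 1.75 and 1.67 at week 4, 2.10 and 2.11 at week 8 and 1.52 and 1.22 at week 9. The B6 samples were at -0.99 and -1.12 at week 0, 0.16 at week 2, 0.11 and 0.20 at week 4, 1.42 and 1.52 at week 8 and 0.63 at week 9. In both strains every later sample lay above both week 0 samples of the strain, and the highest week was week 8. Over the mean of weeks 4 and 8 Cxcr2 rose by a log2 change of 2.06 (standard error 0.09, adjusted p = 6.6e-07), that is 4.16-fold, in DBA/2 mice and by 1.87 (0.09, adjusted p = 2.46e-06), that is 3.64-fold, in B6 mice. Across weeks the rise was from 1.35 at week 2 to 2.25 at week 8 in DBA/2 mice and from 1.21 at week 4 to 2.52 at week 8 in B6 mice, and all of the 8 changes passed the test under each scaling and with each sample left out that leaves the group a sample. The B6 week 8 rise was measured between groups that were both high in hepatocyte genes. Their erythroid sums differed, from 3710 to 3950 at week 0 and from 1700 to 1720 at week 8. Within the slides shared by weeks 0 and 8 the change was 2.20 and 2.31 in DBA/2 mice and 2.61 in B6 mice.

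The second Cxcr2 probe (74092956 to 74093015) rose by 2.11 in DBA/2 mice and by 1.95 in B6 mice, and over the 18 samples its Pearson correlation with the main probe was 0.956. Neutrophil genes moved the same way: all 13 tested genes of a neutrophil list rose in DBA/2 mice and 12 of 13 did in B6 mice (Ly6g had no probe), where 9.8% and 7.28% of all tested probes rose. Among the genes well above background in each compared group, Ngp rose by 2.79, Il1r2 by 2.77 and Camp by 2.55 in DBA/2 mice, and Ltf rose by 2.89, S100a8 by 2.23 and Mmp8 by 2.20 in B6 mice, all but Il1r2, a decoy receptor for interleukin-1, being proteins of neutrophil granules or cytosol. Others were not well above background on any week 0 array, and at week 8 they were higher by a bound only, such as at least 11.2-fold for Lcn2 in DBA/2 mice and at least 29.9-fold for Camp, 13.7-fold for Ngp and 8.64-fold for Lcn2 in B6 mice. The summed signal of the list was from 106 to 107 at week 0 and from 704 to 784 at week 8 in DBA/2 mice, and from 57.2 to 57.4 and from 430 to 432 in B6 mice. How far this list and Cxcr2 share a source was not tested.

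Ccr2, the receptor for Ccl2 on inflammatory monocytes, rose in DBA/2 mice from week 4 on and in B6 mice at weeks 2, 8 and 9. Its probe (NM_009915, chromosome 9 of mm8, 123957008 to 123957067) was at -0.85 and -0.82 in the DBA/2 week 0 samples, -0.92 and -0.99 at week 2, 0.56 and 0.59 at week 4, 0.97 and 1.08 at week 8 and 0.65 and 0.59 at week 9. In B6 mice it was at -1.20 and -1.18 at week 0, -0.56 at week 2, -1.45 and -1.29 at week 4, 0.38 and 0.36 at week 8 and 0.07 at week 9. The samples of week 4 were thus high in DBA/2 mice and low in B6 mice, and those of weeks 8 and 9 were high in both. In DBA/2 mice the log2 change was -0.12 at week 2 (adjusted p = 0.407), and Ccr2 rose by 1.41 at week 4 (adjusted p = 5.48e-06), 1.86 at week 8 (standard error 0.08, adjusted p = 4.38e-07) and 1.46 at week 9. Ccr2 in B6 mice rose by 0.63 at week 2 (adjusted p = 0.00213), had a change of -0.18 at week 4 (adjusted p = 0.178), and rose by 1.56 at week 8 and 1.26 at week 9, where normexp background correction ended the calls at week 2 (0.41) and week 9 (0.90).

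Within the slides shared with week 0, the Ccr2 change at week 4 was 1.41 on both slides in DBA/2 mice and -0.25 and -0.07 in B6 mice. Monocyte genes were high in the same groups apart from B6 mice at week 2. In DBA/2 mice the summed signal of 12 monocyte genes with a probe was from 26.4 to 29.8 at weeks 0 and 2. It was from 39.8 to 53.8 at weeks 4, 8 and 9. The B6 sums were from 25.9 to 29.4 at weeks 0, 2 and 4 and from 38.6 to 42.5 at weeks 8 and 9. At week 2 in B6 mice, where Ccr2 was called higher, the sum was 29.4, with 3 of the 12 genes risen and 1 fallen. Of all tested probes 13% were called at that week. For the mean of weeks 4 and 8, 10 of the 12 rose in DBA/2 mice, among them Fcgr1 with 3.16 and Cd14 with 2.21, whereas 3 rose and 3 fell in B6 mice, where F13a1 rose by 1.39 and Cd14 by 1.33. Of all tested probes 9.8% rose and 13.1% fell in DBA/2 mice and 7.28% rose and 7.74% fell in B6 mice. The part of monocyte number in the Ccr2 values was not tested.

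Cx3cr1, the fractalkine receptor of patrolling monocytes and NK cells, moved in opposite directions in the strains at week 2. Its main probe (NM_009987, chromosome 9 of mm8, 119898598 to 119898657) was at -3.33 and -3.17 in DBA/2 mice at week 0, -4.09 and -4.09 at week 2, -2.80 and -3.04 at week 4, -2.79 and -2.88 at week 8 and -3.58 and -3.13 at week 9. The B6 samples were at -3.22 and -3.36 at week 0, -2.56 at week 2, -4.13 and -4.29 at week 4, -2.76 and -2.59 at week 8 and -3.20 at week 9. The lowest samples were those of DBA/2 mice at week 2 and of B6 mice at week 4. Cx3cr1 fell by 0.84 in DBA/2 mice at week 2 (standard error 0.15, adjusted p = 0.00578) and rose by 0.73 in B6 mice at week 2 (0.19, adjusted p = 0.0308), where the call was lost without either B6 week 0 sample, with values from 0.67 to 0.80. Cx3cr1 of B6 mice fell by 0.92 at week 4 (adjusted p = 0.00372) and rose by 0.62 at week 8 (adjusted p = 0.0184), but the latter was -0.25 with normexp and lost its call without B6 week 0 replicate 1, B6 week 0 replicate 2 or B6 week 8 replicate 2.

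Ccr1, a receptor of monocytes and neutrophils for Ccl3 and related ligands, was near the background. Its probe (NM_009912, chromosome 9 of mm8, 123811755 to 123811814) lay from -7.03 to -3.65, and the replicates at week 0 lay at -7.03 and -3.72 in B6 mice and at -7.02 and -3.65 in DBA/2 mice. No change passed the test in any comparison. In DBA/2 mice over the mean of weeks 4 and 8 the log2 change was 0.83, with a 95% confidence interval from -1.37 to 3.03. Neither a fall nor a rise of more than 2-fold could thus be excluded.

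Cxcr3, the receptor of activated T cells and NK cells for the interferon-induced chemokines Cxcl9 and Cxcl10, had the largest strain difference of the 9 in its change at weeks 4 and 9 and over the mean of weeks 4 and 8, Ccr1 aside. Its probe (NM_009910, chromosome X of mm8, 97934300 to 97934359) was at -1.07 and -0.99 in DBA/2 mice at week 0, -0.73 and -0.63 at week 2, 0.26 and 0.30 at week 4, -1.08 and -0.97 at week 8 and -0.79 and -0.70 at week 9. The B6 samples were at -0.24 and -0.19 at week 0, -0.50 at week 2, -1.52 and -1.50 at week 4, -0.42 and -0.49 at week 8 and -1.02 at week 9. The samples of week 4 were thus the highest of DBA/2 mice and the lowest of B6 mice, and at week 8 both strains lay close to their week 0 samples again. At week 4 Cxcr3 rose by 1.31 (standard error 0.08, adjusted p = 8.06e-06), 2.48-fold, in DBA/2 mice and fell by 1.3 (0.08, adjusted p = 8.54e-06), 2.46-fold, in B6 mice. At week 8 the change was 0.00 in DBA/2 mice (95% confidence interval -0.17 to 0.18) and -0.24 in B6 mice (adjusted p = 0.0575), beside a called rise of 0.66 in DBA/2 mice and fall of 0.77 in B6 mice over the mean of both weeks. The former lost its call when each array was scaled by its pan-leukocyte genes (0.32), the latter with normexp background correction (-0.57).

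Within the slides shared with week 0, the Cxcr3 change at week 4 was 1.33 and 1.29 in DBA/2 mice and -1.29 on both slides in B6 mice. In B6 mice Cxcr3 also fell by 0.80 at week 9 (adjusted p = 0.000892), on 1 sample. The rises of 0.35 at week 2 and 0.29 at week 9 in DBA/2 mice were lost without either DBA/2 week 0 sample or without replicate 2 of the later week, with values from 0.30 to 0.40 and from 0.24 to 0.33, and also with the pan-leukocyte scaling (0.27 and 0.01). NK cell genes in B6 mice were lower at the same week, with a summed signal from 6.45 to 6.5 at week 0 and from 3.88 to 3.98 at week 4, and 6 of 9 tested genes fell while none rose. In DBA/2 mice at week 4 the sum was from 4.85 to 4.86, beside 4.45 to 4.54 at week 0, with 3 of 9 risen, and of 16 T cell genes none rose and 7 fell. Of all tested probes 14.8% were called in DBA/2 mice and 15.7% in B6 mice at that week. The NK cell sum and Cxcr3 did not move together at every week. In DBA/2 mice the sum was highest at week 8, from 6.08 to 6.12, while the Cxcr3 mean was -1.03 at weeks 0 and 8. At week 9 the sum was lowest, from 2.97 to 3.09, beside the Cxcr3 rise of 0.29. In B6 mice at week 8 the sum was from 4.58 to 4.61, with Cxcr3 at -0.46 beside -0.21 at week 0. At week 9 the B6 sum was 3.99, beside the Cxcr3 fall of 0.80. The part of NK cell number in the Cxcr3 values was not tested.

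Ccr6, Ccr7 and Cxcr5, which steer B cells, naive T cells and dendritic cells into lymphoid tissue, fell in DBA/2 mice, Ccr6 and Ccr7 at all 4 later weeks and Cxcr5 at 3. The Ccr6 probe (NM_009835, chromosome 17 of mm8, 8095028 to 8095087) was at 1.25 and 1.34 in the DBA/2 week 0 samples and from 0.49 to 0.83 in the 8 later ones, all of which lay below both. It fell by 0.49 at week 2, 0.60 at week 4, 0.74 at week 8 (standard error 0.11, adjusted p = 0.00116) and 0.72 at week 9. The fall at week 2 was lost without any 1 of the DBA/2 week 0 or week 2 samples, with values from -0.54 to -0.45, and that at week 4 without DBA/2 week 0 replicate 2, where the highest adjusted p was 0.0509. In B6 mice Ccr6 was at 0.72 and 0.81 at week 0 and from 0.61 to 1.11 later, groups that overlap, and none of the 4 changes, from -0.15 to 0.18, passed the test.

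Ccr7, the receptor for Ccl19 and Ccl21, fell in steps in DBA/2 mice. Its probe (NM_007719, chromosome 11 of mm8, 98960289 to 98960314) was at 0.76 and 0.77 at week 0, 0.36 and 0.36 at week 2, 0.35 and 0.37 at week 4, 0.06 and 0.13 at week 8 and 0.02 and -0.11 at week 9. B6 samples were at 0.71 and 0.74 at week 0, 0.60 at week 2, 0.68 and 0.73 at week 4, 0.27 and 0.33 at week 8 and 0.57 at week 9. All later DBA/2 samples were below the week 0 samples, whereas in B6 mice the week 8 samples were the ones that stood low. Ccr7 fell in DBA/2 mice by 0.40 at weeks 2 and 4, 0.67 at week 8 (standard error 0.07, adjusted p = 0.000152) and 0.81 at week 9 (adjusted p = 6.07e-05), and in B6 mice by 0.42 at week 8 (adjusted p = 0.00279). The called fall of 0.22 over the mean of weeks 4 and 8 in B6 mice was lost with any 1 of 14 samples left out (all but the B6 weeks 2 and 9 and the DBA/2 week 9 samples), with values from -0.24 to -0.21.

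Cxcr5, the receptor for Cxcl13 that brings B cells into follicles, was at 0.57 and 0.52 in DBA/2 mice at week 0, -0.01 and -0.15 at week 2, 0.30 and 0.16 at week 4, 0.36 and 0.24 at week 8 and -0.32 and -0.40 at week 9 (NM_007551, chromosome 9 of mm8, 44262983 to 44263042). It fell by 0.62 at week 2 (standard error 0.09, adjusted p = 0.00217) and by 0.90 at week 9 (adjusted p = 0.00013), and the weeks 4 and 8 samples lay between. The fall of 0.32 at week 4 was lost with any 1 of 16 samples left out (all but the B6 weeks 2 and 9 samples), with values from -0.39 to -0.25, and the change of -0.24 at week 8 did not pass (adjusted p = 0.0918). Over the mean of weeks 4 and 8 it fell by 0.28, a call lost without DBA/2 week 0 replicate 1, DBA/2 week 0 replicate 2, DBA/2 week 4 replicate 2 or DBA/2 week 8 replicate 2, with values from -0.31 to -0.25. In B6 mice Cxcr5 was at 0.58 and 0.51 at week 0 and from 0.19 to 0.77 later, and its fall of 0.34 at week 4 was lost with any 1 of 6 samples left out (B6 week 0, B6 week 4 and DBA/2 week 0), with values from -0.38 to -0.30.

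Lymphocyte genes were lower in the same DBA/2 samples. Of 16 T cell genes 12 fell and none rose over the mean of weeks 4 and 8, led by Lef1 with -1.06, Cd6 with -0.94 and Tcf7 with -0.81, and of 12 B cell genes 9 fell and none rose, led by Pax5 with -0.92, Fcrla with -0.85 and Fcer2a with -0.81. The summed T cell signal was from 22.6 to 22.8 at week 0 and from 12 to 13.3 at weeks 8 and 9. The B cell sum was from 44.7 to 47.5 at week 0, 24.7 to 26 at week 2, 33.4 to 34.1 at week 4, 30.4 to 31.8 at week 8 and 23.2 to 24.6 at week 9, so that it stood lowest at the weeks at which Cxcr5 did. In B6 mice 7 of the 16 T cell genes and none of the 12 B cell genes fell over that mean, but at week 4, when Cxcr5 fell there, 7 of the 12 B cell genes fell and their sum was from 27.6 to 28.2, beside 34.5 to 34.8 at week 0. Of all tested probes 13.1% fell over that mean in DBA/2 mice and 7.74% in B6 mice, and 15.7% were called in B6 mice at week 4. The part of lymphocyte number in the values of these 3 receptors was not tested.

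**Figure D3:**
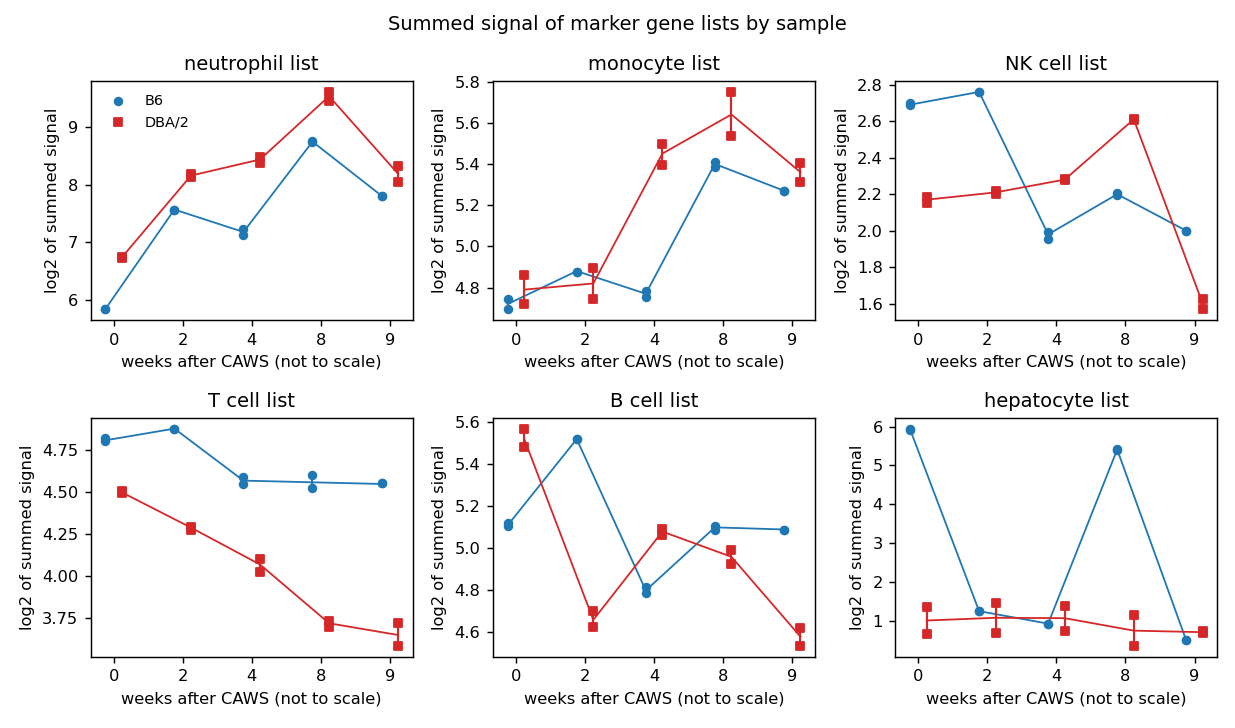
Log2 of the summed signal (relative to the 75th percentile of the array, vertical axis) of 6 marker gene lists at 0, 2, 4, 8 and 9 weeks after CAWS (horizontal axis, not to scale) in B6 mice (circles) and DBA/2 mice (squares), with each point a sample and lines through the group means. Neutrophil sums lie above week 0 at every later week in both strains, T cell sums fall to 12 to 13.3 in DBA/2 mice at weeks 8 and 9, and the hepatocyte list is high in B6 mice at weeks 0 and 8.

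Cxcr4, the receptor for Cxcl12 that keeps cells in the bone marrow, had 1 change from week 0 that kept its call with each sample left out, the fall in B6 mice at week 8. Its main probe (NM_009911, chromosome 1 of mm8, 130416048 to 130416107) was at -0.98 and -1.11 in B6 mice at week 0, -1.03 at week 2, -0.87 and -0.86 at week 4, -1.78 and -1.81 at week 8 and -0.65 at week 9. In DBA/2 mice it was at -0.86 and -0.97 at week 0 and from -0.66 to -0.43 at weeks 2, 4 and 8, and at week 9 it was back at -0.87 and -1.03. The B6 week 8 samples stood apart below all others. Cxcr4 fell there by 0.75 (standard error 0.10, adjusted p = 0.000532), but the second probe (130416628 to 130416687), whose Pearson correlation with the first was 0.793 over the 18 samples, had a change of -0.12 (adjusted p = 0.639). In DBA/2 mice the main probe rose by 0.41 at week 2 and 0.31 at week 8 and the second by 0.58 and 0.64, but with each array scaled by its pan-leukocyte genes the value at week 8 was -0.07 and that over the mean of weeks 4 and 8, called at 0.32, was -0.02. The DBA/2 calls were also lost without single samples, that at week 2 without DBA/2 week 2 replicate 1 or DBA/2 week 0 replicate 2, with values from 0.34 to 0.49, and that at week 8 with any 1 of the same 14 samples as for Ccr7, with values from 0.25 to 0.37. The mean of both weeks lost its call without DBA/2 week 0 replicate 1, DBA/2 week 0 replicate 2, DBA/2 week 4 replicate 1 or DBA/2 week 8 replicate 1, with values from 0.26 to 0.37. So did, with any 1 of those 14 left out, the called fall of 0.28 over the mean of both weeks in B6 mice, with values from -0.35 to -0.22, and the second probe had 0.06 there.

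Week by week, 7 of 9 receptors were called in DBA/2 mice at week 2 (15.7% of all tested probes), 6 at week 4 (14.8%), 5 at week 8 (24%) and 6 at week 9 (27.7%). In B6 mice 3 were called at week 2 (13%), 4 at week 4 (15.7%), 5 at week 8 (21.2%) and 3 at week 9 (9.34%). Cxcr2, Ccr6 and Ccr7 were the ones called at every week in DBA/2 mice and Cxcr2 the one called at every week in B6 mice. With normexp the calls over all weeks and the 11 tested probes went from 30 to 16 in DBA/2 mice and from 20 to 8 in B6 mice. How far this drop is particular to the receptors was not tested. The values at weeks 2 and 9 in B6 mice rest on 1 sample each, which is assumed to vary as the other groups do.

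**Figure D4:**
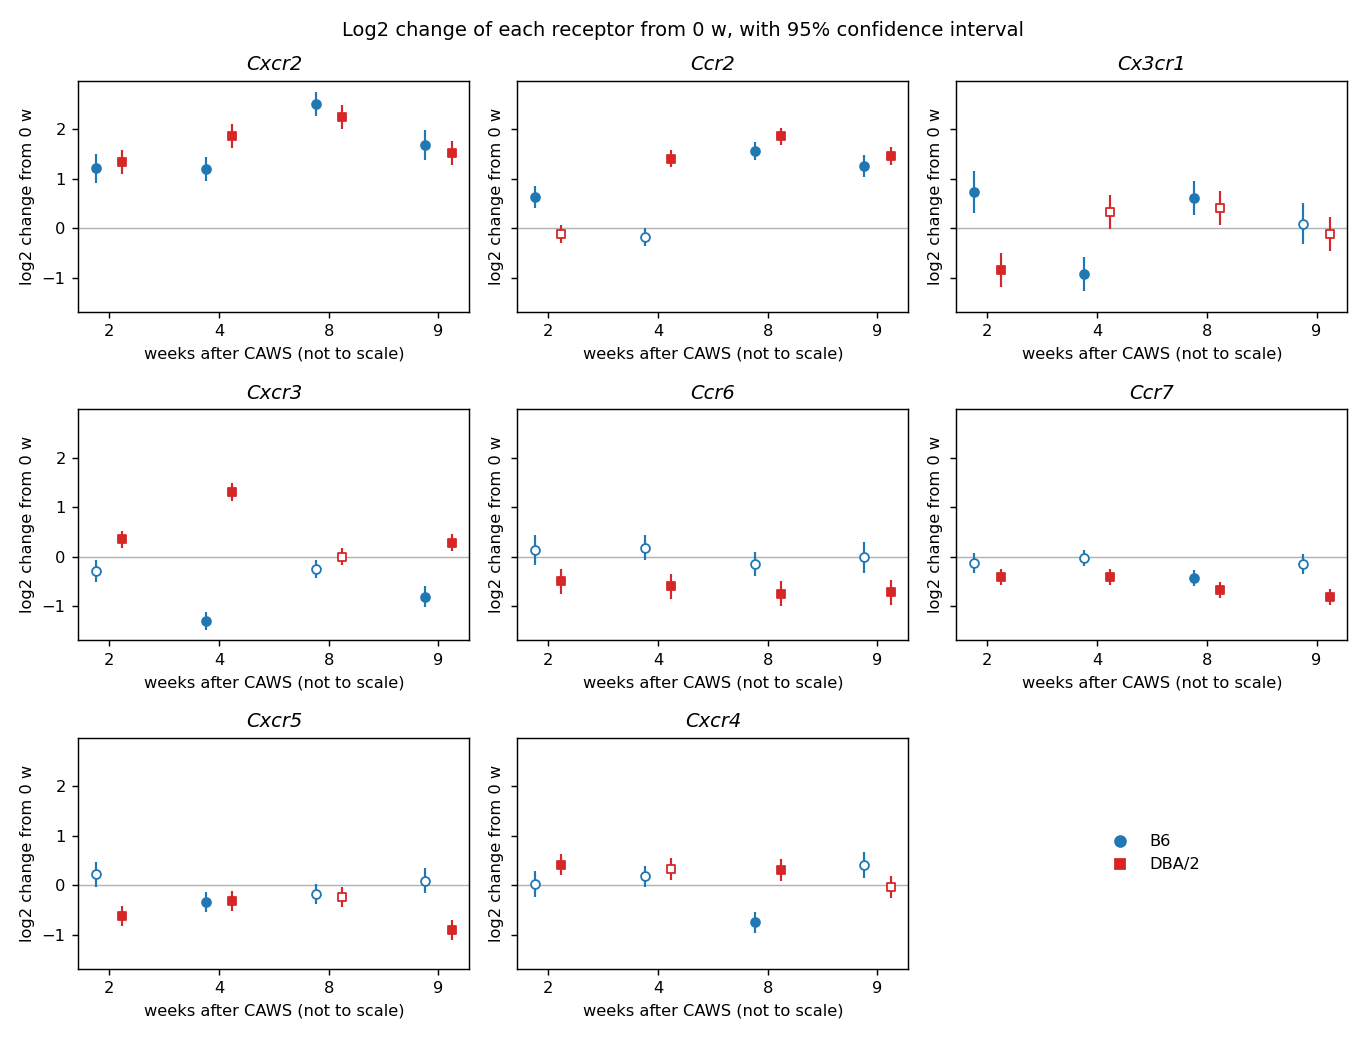
Log2 change from week 0 (vertical axis) of the main probe of 8 receptors at 2, 4, 8 and 9 weeks after CAWS (horizontal axis, not to scale) in B6 mice (circles) and DBA/2 mice (squares), with bars for the 95% confidence interval of the limma fit and filled points for an adjusted p under 0.05. Cxcr2 is above 0 at all weeks in both strains, Ccr6 and Ccr7 are below 0 at all weeks in DBA/2 mice, and Cxcr3 at week 4 lies at 1.31 in DBA/2 and -1.3 in B6 mice.

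Whether a receptor changed differently in DBA/2 and in B6 mice was tested as the difference of their changes from week 0. This difference, for the mean of weeks 4 and 8, passed the test for 5 of 9 receptors, where 13.2% of all tested probes were called. Cxcr3 with 1.43 (standard error 0.10, adjusted p = 3.07e-05), Ccr2 with 0.95 (0.10, adjusted p = 0.000318) and Cxcr4 with 0.60 (0.12, adjusted p = 0.00984) rose more or fell less in DBA/2 mice, and Ccr6 with -0.69 (0.14, adjusted p = 0.0105) and Ccr7 with -0.32 (0.09, adjusted p = 0.0455) went lower in them. The differences of Ccr6 and Cxcr4 were lost without B6 week 0 replicate 1 or DBA/2 week 0 replicate 2, with values from -0.77 to -0.61 and from 0.54 to 0.67, and that of Ccr7 with any 1 of the 14 samples named for its B6 change, with values from -0.33 to -0.30. The second Cxcr4 probe had a difference of 0.44 that did not pass (adjusted p = 0.17). With normexp the Ccr2 difference of 0.88 did not pass, and Cxcr3 alone was called, when 0.392% of all tested probes were. For Cxcr2 the difference was 0.19, with a 95% confidence interval from -0.11 to 0.49, and for Cxcr5 -0.02, with an interval from -0.27 to 0.24.

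At week 4 the difference passed for 6 of 9 receptors (11.9% of all tested probes), and it was largest for Cxcr3 with 2.61, a 6.1-fold difference (standard error 0.11, adjusted p = 1.46e-06), for Ccr2 with 1.59 and for Cx3cr1 with 1.25. That of Cxcr2, 0.65, was lost without B6 week 0 replicate 1, B6 week 4 replicate 1, DBA/2 week 0 replicate 2 or DBA/2 week 4 replicate 1, with values from 0.59 to 0.72, and the second Cxcr2 probe had 0.75. That of Ccr7, -0.38, was lost with any 1 of the same 14 samples, with values from -0.41 to -0.35. At week 8 it passed for 2 (17.5%), Cxcr4 with 1.06 and Ccr6 with -0.60, of which the latter was lost without any 1 of the samples of week 0 or week 8 (-0.64 to -0.55), and the Ccr2 difference was 0.30 (adjusted p = 0.104). The second Cxcr4 probe had a difference of 0.76 at week 8 (adjusted p = 0.0382). At week 2 it passed for 5 (15.3%) and at week 9 for 4 (12.3%), both against 1 B6 sample, and the largest called were Cx3cr1 with -1.57 at week 2 and Cxcr3 with 1.09 at week 9. For Cxcr2 at week 2 it was 0.14 and did not pass, and with arrays scaled by their pan-leukocyte genes it was -0.40 (adjusted p = 0.0386).

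**Figure D5:**
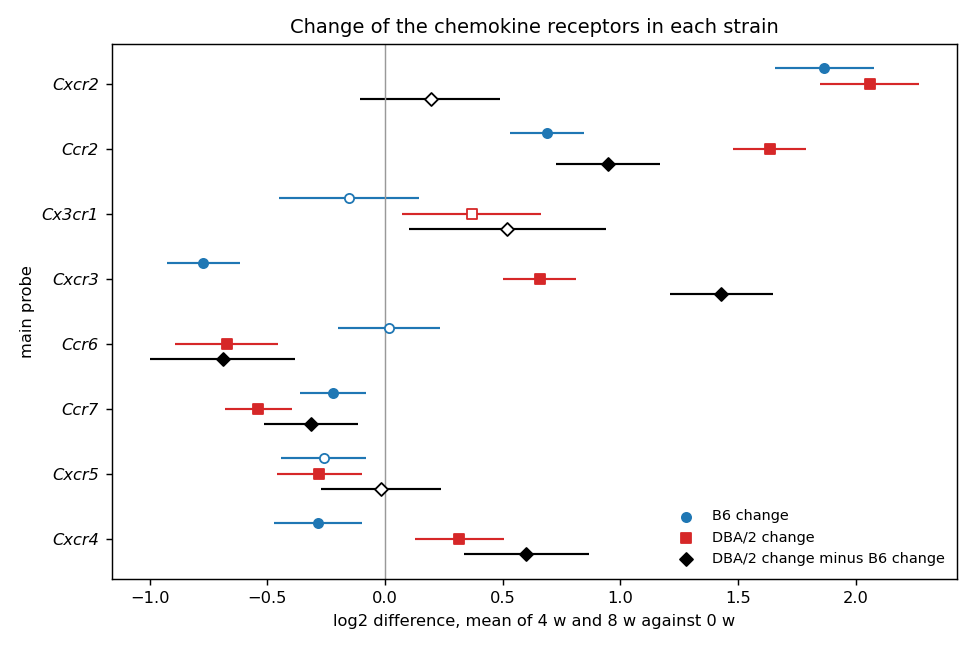
Log2 change over the mean of weeks 4 and 8 against week 0 (horizontal axis) of the main probe of 8 receptors in B6 mice (circles) and DBA/2 mice (squares), and the DBA/2 change minus the B6 change (diamonds), with lines for the 95% confidence interval of the limma fit and filled points for an adjusted p under 0.05. Cxcr2 lies farthest above 0 in both strains, with a difference of 0.19, and Cxcr3 lies at 0.66 in DBA/2 and -0.77 in B6 mice.

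At week 0, right after the last injection, 4 of 9 receptors differed between DBA/2 and B6 mice, where 32.7% of all tested probes did. Cxcr2 was higher in DBA/2 mice by a log2 difference of 0.90 (standard error 0.11, adjusted p = 0.00019), with 0.41 for its second probe (adjusted p = 0.0152), Ccr6 by 0.54 (adjusted p = 0.00516) and Ccr2 by 0.36 (adjusted p = 0.00746), and Cxcr3 was lower by -0.82 (0.08, adjusted p = 5.27e-05). None of the 9 differed 2-fold, beside 17.5% of all tested probes, the strains were on different slides, and 18 of 19 hepatocyte genes were lower in DBA/2 mice. With normexp 2 of the 11 tested probes passed, those of Cxcr3 and the main probe of Cxcr2.

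The order of the 10 groups set the receptors apart. By their main probes, Cxcr2 and Ccr2 were highest in DBA/2 mice at week 8, and their group means spanned 8.93-fold and 5.26-fold from the lowest group, B6 week 0 for Cxcr2 and B6 week 4 for Ccr2. The second Cxcr2 probe was highest in B6 mice at week 8, at 0.58 beside 0.56 in DBA/2 mice, and spanned 6.91-fold. Of the 9 pairs of neighbours in that order, 4 for Cxcr2 and 3 for Ccr2 had a 95% confidence interval of their difference that included 0. Ccr6 spanned 1.68-fold and Ccr7 1.76-fold, with DBA/2 week 0 highest in both, and 8 and 7 of 9 neighbour pairs could not be told apart. Cxcr3 spanned 3.46-fold from DBA/2 week 4 to B6 week 4, with 5 of 9 such pairs.

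Over the 18 samples, as a description in which the points share weeks, strains and slides, Ccr2 and Cxcr2 were the most alike pair of members with a Pearson r of 0.826, followed by Ccr6 and Ccr7 with 0.743. Among 11058 genes detected in all 18 samples, those most like Cxcr2 were Lilra6 with r = 0.982, Fgl2 with 0.982 and Cebpd with 0.981. Those most like Ccr2 were Lgals3 with 0.98, Mpeg1 with 0.976 and Gm2a with 0.97, and those most like Cxcr3 were Cish with 0.968, P2rx7 with 0.886 and Cxcr6 with 0.877. For Cx3cr1 they were Capg with 0.935, Fbh1 with 0.93 and Plcg2 with 0.917, and for Ccr7 they were Fam169b with 0.927, Grap with 0.916 and Cd200 with 0.906. For Cxcr5 they were Hmces with 0.953, Snx5 with 0.935 and Brd7 with 0.932, for Ccr6 Amer1 with 0.895, Ttc14 with 0.864 and Foxp1 with 0.85, and for Cxcr4 Tsc22d3 with 0.891, Mtx2 with 0.827 and Crem with 0.826.

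Of 15 other chemokine receptors, 10 could be tested. For the mean of weeks 4 and 8, 22.9% of all tested probes were called in DBA/2 mice and 15% in B6 mice, with medians of -0.14 and -0.08. Of the 10 receptors, 4 rose and 1 fell in DBA/2 mice, and none rose and 2 fell in B6 mice, a B6 count near that share. Their medians were 0.38 and -0.27. Among the risen were Ccrl2 with 1.52, a receptor that binds chemerin, Cxcr6 with 1.23, the receptor for Cxcl16 on effector T cells, and Ackr1 with 0.46, an atypical receptor that binds chemokines without signalling. Cxcr6 fell by 1.03 in B6 mice, and its strain difference was 2.25 (standard error 0.14, adjusted p = 2.15e-05), in the same direction as that of Cxcr3. Ccr9, which guides T cells to the gut, fell by 0.93 in DBA/2 mice and by 0.82 in B6 mice.

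Of 24 ligand genes of the 9 receptors, 15 could be tested. Over the mean of weeks 4 and 8, 22.9% of all tested probes were called in DBA/2 mice and 15% in B6 mice. Of the 15 ligands, 8 rose and none fell in DBA/2 mice, while 3 rose and 1 fell in B6 mice. Among those well above background in all 18 samples, Ccl3 rose by 1.59, Ccl9 by 1.22 and Ccl6 by 1.21 in DBA/2 mice. The count includes Cxcl10 and Cxcl9, the ligands of Cxcr3, which were well above background in 5 and 3 of the 18 samples, not on any DBA/2 week 0 array, and which at week 8 were at least 3.32-fold and 1.96-fold higher. In B6 mice Ccl6 rose by 0.66, Ppbp, a Cxcr2 ligand of platelets, by 0.52 and Ccl3 by 0.40, and Ccl5 fell by 0.56, but Ccl3 rose there by 1.31 at week 4 and fell by 0.52 at week 8. Of 25 genes of receptor signalling and its shut-off, all tested, 11 rose and 3 fell in DBA/2 mice, beside the 22.9% of all tested probes. In B6 mice 5 rose and 2 fell, beside the 15%. In DBA/2 mice Rgs2 with 1.49, Rgs1 with 1.34 and Gng2 with 0.82 rose most, the first pair being brakes of the G protein and the last a subunit of it, and in B6 mice Rgs2 rose by 1.05, Pik3r5, a subunit of the phosphoinositide kinase that receptors switch on, fell by 0.50, and Plcb2, a phospholipase, fell by 0.50.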

How the data were processed

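Leukocyte RNA of whole blood was measured, with Cy3 as the dye, on Agilent G4122F arrays of a single color. The authors deposited the Agilent Feature Extraction 9.5.3.1 output of each array, whose processed signal is a linear intensity, background-subtracted and detrended within the array but not normalized between arrays. A deposited value table of intensity holds the same processed signal averaged over the spots of a probe. Of its values, 99.5% lay within 0.1 percent of the mean processed signal, and its column medians were from 5.67 to 13.4, so that it is linear and neither centred nor scaled. Probe positions are the mm8 ones of the array files.

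Controls and outlier spots were dropped, spots of a probe and the 2 arrays of B6 week 0 replicate 2 were averaged, and log2 signals were scaled by each array's 75th percentile over 11536 probes. A probe entered if it was well above background in 2 or more of 18 samples (22939 probes), and limma 3.58.1 (R 4.3.3; lmFit and eBayes) fitted them (a mean for each of 10 groups, 8 residual degrees of freedom and a prior of 1.37). Benjamini-Hochberg adjusted p values under 0.05 were called. Comparisons were each later week and the mean of weeks 4 and 8 against week 0, their difference between strains, and the strains at week 0. Genes of 41174 probes were named by accession (24375), gene name (6301) or synonym (2426), or kept the name in the files (8072). Promoter windows are those of RefSeq. Python 3.11.15 with pandas 2.3.3, numpy 2.4.6 and, for the plots, matplotlib 3.10.9 was used.

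All members are given by the probe with their highest mean log2 signal, other lists by counts and the 3 largest called changes, and genes alike by Pearson r. Some genes of the lists have no tested probe and are in no count of changes. The members, lists and tests were chosen with earlier results of these data known. The alternatives were quantile normalization, normexp on raw pixel signals (offset 50), each array's median, the 75th percentile over all probes, the median of the pan-leukocyte genes, the deposited value table, no filter, a filter at 9 of 18 samples, outlier spots kept, the replicate number or slide as a block, each strain alone, either array of B6 week 0 replicate 2, each replicate left out, and the mean of a gene's probes. Counting 2-fold changes with no test was added after seeing the data. Some counts of 5 or fewer are named beyond that rule, a choice made after the values were seen. A few genes of the lists are counted but not reported here by name. A fold against a group not well above background on any array is given as at least that of the brighter group's mean over the higher of the probe's own level and the lowest level well above background on each array. The procedure was also run on simulated data. These had independent noise in each sample, unlike the correlated DBA/2 replicates described below, so that the run gives no error rate for the data here. The number of arrays limits the precision.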

Additional observations from a re-analysis of the deposited data

Results flagged for a closer look

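The change from week 0 differed between DBA/2 and B6 mice, by limma's test of the difference, for 22 receptor and week results, each given as the DBA/2 log2 change minus the B6 one. In each comparison 9 receptors were tested. Of all tested probes 15.3% were called at week 2, 11.9% at week 4, 17.5% at week 8, 12.3% at week 9 and 13.2% over the mean of weeks 4 and 8. The 2 of 9 receptors called at week 8 are near the share of that week. At week 2, against 1 B6 sample, it was -0.75 for Ccr2, -0.63 for Ccr6, 0.64 for Cxcr3, -0.85 for Cxcr5 and -1.57 for Cx3cr1, and that of Ccr6 was lost with any 1 of 12 samples left out (B6 weeks 0 and 8 and DBA/2 weeks 0, 2, 4 and 8), with values from -0.67 to -0.58. At week 4 it was 1.59 for Ccr2, -0.78 for Ccr6, -0.38 for Ccr7, 0.65 for Cxcr2, 2.61 for Cxcr3 and 1.25 for Cx3cr1, and that of Ccr7 was lost with any 1 of 14 samples left out (all but those of B6 weeks 2 and 9 and DBA/2 week 9). At week 8 it was -0.60 for Ccr6 and 1.06 for Cxcr4. At week 9, again against 1 B6 sample and with the DBA/2 samples on other slides than those of week 0, it was -0.70 for Ccr6, -0.66 for Ccr7, 1.09 for Cxcr3 and -0.999 for Cxcr5, and that of Ccr6 was lost without either week 0 sample of either strain or without DBA/2 week 9 replicate 1, with values from -0.79 to -0.62. Over the mean of weeks 4 and 8 it was 0.95 for Ccr2, -0.69 for Ccr6, -0.32 for Ccr7, 1.43 for Cxcr3 and 0.60 for Cxcr4.

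Ccr2 and Cx3cr1 had a difference of opposite sign at week 2 and at week 4. Cxcr3 was positive at weeks 2, 4 and 9, and Ccr6 was negative at all 4 weeks. All of these differences use the same week 0 samples, so that the weeks are not separate evidence. At week 0 the Ccr6 mean was 1.3 in DBA/2 and 0.76 in B6 mice, and the Cxcr3 mean was -1.03 and -0.21.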

How the results depend on the processing

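Of 77 called single-gene results, 55 kept their call with every sample left out in turn, and the 22 that did not had changes of at most 0.73 on the log2 scale. Over all 144 single-gene results and 4619 alternative values, 4198 kept direction and side of the threshold, 275 lost the call, 50 gained it, 92 changed sign with neither value called, and 4 reversed with a call before or after. These were Cxcr4 in DBA/2 mice at week 8 with -0.072 and over the mean of weeks 4 and 8 with -0.024 and the Cxcr2 strain difference at week 2 with -0.40, all with scaling by the pan-leukocyte genes, and Cx3cr1 in B6 mice at week 8 with -0.25 under normexp. Scaling by the pan-leukocyte genes shifted the median of all probes by -0.34 in DBA/2 and -0.15 in B6 mice over the mean of weeks 4 and 8, and the 75th percentile over all probes, quantile normalization and normexp by 0.12, 0.10 and 0.04 in DBA/2 mice and 0.08, 0.07 and -0.24 in B6 mice. Counts are of the 11 tested probes. Over the mean of weeks 4 and 8, 9 were called in DBA/2 mice, 6 in B6 mice and 5 for the strain difference, over the weeks 30 and 20, and between strains at week 0 5. With normexp these became 4, 2, 1, 16, 8 and 2, and by at least 2-fold without a test 3, 2, 2, 12, 12 and 0. Normexp also lowered the share of all tested probes called for the strain difference, as given above. Without a filter the strain difference was called for 2 and the week 0 difference for 3. With a replicate left out, the counts lay from 6 to 10, 4 to 6, 2 to 6, 21 to 31, 16 to 20 and 4 to 5, and the strain difference was called for 2 without B6 week 0 replicate 1 and for 2 without DBA/2 week 0 replicate 2. The replicate number was also the scan day. Over 28 pairs of groups the correlation of same-numbered deviations was from -0.025 to 0.829, 22 were over 0.1, and those among DBA/2 weeks 0, 2, 4 and 8, which shared slides, were from 0.746 to 0.829. As not every pair was over 0.1, the numbers were not taken to pair the samples. With the replicate block, which is also the scan day block, 9, 7, 5, 32, 22 and 5 were called. Slide as a block could not be fitted for DBA/2 mice at week 9 or the strains at week 0. The cause of the other differences was not tested.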
